A study of Mus musculus with 17 samples.

Results

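The genes described here encode the slit diaphragm, the cell junction of the kidney filter, and its scaffolds. They are the 9 genes Nphs1, Kirrel, Kirrel2, Kirrel3, Cd2ap, Fat1, Tjp1, Magi1 and Magi2, chosen by symbol among the 56748 Ensembl gene identifiers of the count table. All 9 were found there, 8 passed the filter on low counts and were tested among 15196 genes, and Kirrel2 was too low to test. RNA came from E11, an established mouse podocyte line, on silicone (PDMS) substrates with 3 surfaces. HF (6 libraries) is a high fractal topography derived from tracings of healthy glomeruli. RT (6 libraries) is a round topography that is not fractal, and NT (5 libraries) has no topography. All groups are the same line on the same polymer, no other treatment, age or genotype is given for any of them, and whether replicates are separate cultures is not stated. The p-values therefore cover only how far these libraries vary, and that variation may be technical. In a bulk sample, fewer cells expressing a gene and less RNA of it per cell cannot be told apart.

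The slit diaphragm spans the gap between the foot processes of neighbouring podocytes and is the last barrier that blood plasma crosses before it becomes urine. Its core is made of immunoglobulin-type membrane proteins, nephrin and the Neph proteins, which bind each other across the slit, together with cadherins of the FAT family. Inside the cell, adaptors and PDZ-domain scaffolds tie these proteins to actin. Nephrin is known for being lost early when podocytes are taken into culture, and inherited loss of nephrin causes congenital nephrotic syndrome in humans.

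Total counts ran from 16180023 to 17765040 in HF, from 15659354 to 24072966 in RT and from 14913649 to 18644871 in NT. Levels below are in CPM, the usual scaling of a gene's counts by the library total, here adjusted by TMM, which corrects totals for differences in composition. Of 12 podocyte markers 8 were tested, and Tcf21, a podocyte transcription factor, had 0 counts in every library. The podocyte list summed to 1532 to 1609 CPM in HF, 1539 to 1616 CPM in RT and 1496 to 1572 CPM in NT. Wt1 and Pdpn of that list were lower on HF (edgeR adjusted p = 0.0113 and 0.000972) and on RT (6.16e-05 and 0.0309) against NT. Actn4 was higher on HF against NT (edgeR adjusted p = 0.0285), and no other podocyte marker was called in the 3 comparisons. Some genes of other kidney cells were also abundant, while 0 of 5 endothelial markers passed the filter. Of 9 tubular epithelial markers 5 were tested, and Slc34a1 and Aqp2 had 0 counts in every library. The tubular list summed to between 1466 and 1815 CPM in HF, between 1524 and 1716 CPM in RT and between 1425 and 1782 CPM in NT. Cdh16 alone averaged 976 CPM in HF and in RT and 977 CPM in NT. Lrp2 averaged 411, 400 and 382 CPM and Aqp1 257, 246 and 204 CPM in HF, RT and NT. Cubn was lower, at 5.04, 5.24 and 5.21 CPM, as was Slc12a1, at 3.51, 3.25 and 3.32 CPM. Umod and Slc12a3 were too low to test. All 5 parietal epithelial markers were tested. Their list summed to 1139 to 1245 CPM in HF, 1188 to 1246 CPM in RT and 1234 to 1311 CPM in NT. Ncam1 of that list was lower on HF than on RT or NT (edgeR adjusted p = 0.0109 and 2.53e-05). Cldn1 was lower on RT than on NT (edgeR adjusted p = 0.0157). A list of mesangial and smooth muscle markers, of which 3 of 6 were tested, summed to between 805 and 880 CPM in HF, between 774 and 853 CPM in RT and between 677 and 771 CPM in NT. Acta2, the smooth muscle actin, carried that difference, with 364 ± 42.2 CPM in HF, 363 ± 23.5 CPM in RT (SD, n = 6 each) and 261 ± 36.7 CPM in NT (SD, n = 5), and rose on HF and on RT against NT (edgeR adjusted p = 0.0171 and 0.0121). Pdgfrb, a receptor of mesangial cells and the other abundant marker of the list, averaged 478 ± 14.0 CPM in HF, 457 ± 8.15 CPM in RT (SD, n = 6 each) and 478 ± 16.3 CPM in NT (SD, n = 5) and was not called. Des averaged under 1 CPM on every surface and Ren1 had 0 counts. The part of these genes in the results below was not tested.

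The slit diaphragm genes spanned a wide range of levels. Set per kilobase of exon, so that genes of unequal length can be compared, the order over the 17 libraries was Fat1 (86.5 CPM per kb), Kirrel (82.8), Tjp1 (45.5), Cd2ap (11.9), Magi1 (4.42), Kirrel3 (2.10), Magi2 (1.18), Nphs1 (0.692) and Kirrel2 (0.00339). The ranges of Fat1 (63.0 to 95.6 CPM per kb) and Kirrel (70.3 to 87.7 CPM per kb) overlapped, and no other neighbours in that order did. With the longest transcript in place of all exons, Cd2ap stood at 33.7 CPM per kb, and the order was the same. The membrane proteins thus held both ends of the order, with Fat1 and Kirrel at the top and Nphs1 and Kirrel2 at the bottom. By CPM, Fat1 was above 99.7% of tested genes and Kirrel above 99%, while Nphs1 was above 27.7%.

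**Figure D1:**
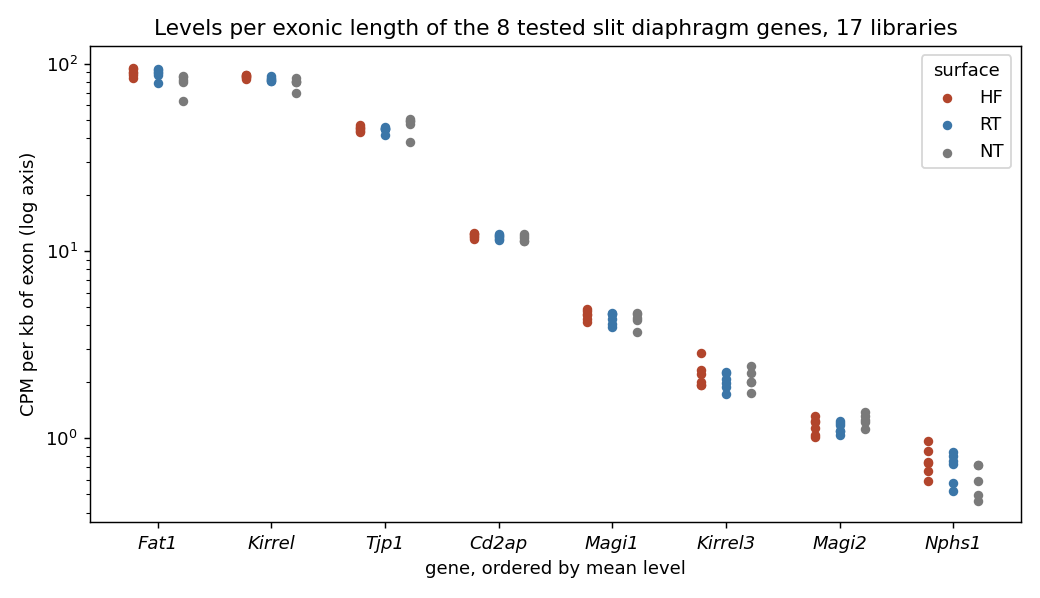
Level of each of the 8 tested slit diaphragm genes in CPM per kb of exon (log axis), with a point for each of the 17 libraries, coloured by surface (HF, RT, NT). The genes fall from Fat1 and Kirrel, at 63.0 CPM per kb or more in every library, to Nphs1, below 1 CPM per kb in every library, and surfaces lie close together within each gene.

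No slit diaphragm gene passed the threshold (adjusted p of 0.05 over all genes, edgeR quasi-likelihood test) in any of the 3 comparisons. For HF against RT, which sets a fractal against a non-fractal relief, 0 of 8 were called, where 0.211% of all genes were, and 0 of 8 had an unadjusted p under 0.05, where 8% of all genes did. DESeq2 and limma voom also called 0 there. For HF against NT, 0 of 8 were called, where 2.33% of all genes were. In that comparison 3 of 8 (Kirrel, Fat1 and Nphs1) had an unadjusted p under 0.05, where 14.2% of all genes did, DESeq2 called 1 (Kirrel) and limma voom 0. By edgeR, Kirrel was also called with no filter beyond 1 count (adjusted p = 0.0190). With replicate number as a block, edgeR called Kirrel and Fat1 (adjusted p = 0.0248 and 0.00212). For RT against NT, 0 of 8 were called, where 3.97% of all genes were. There 2 of 8 (Fat1 and Kirrel) had an unadjusted p under 0.05, where 17.1% of all genes did, and DESeq2 and limma voom called 0. With the block, edgeR called Fat1 there (adjusted p = 0.00410). The median log2 fold change over the 8 genes was 0.04 for HF against RT, 0.08 for HF against NT and 0.02 for RT against NT, beside -0.00072, -0.0025 and -0.0021 over all tested genes. No gene had groups that did not overlap, which 0.967%, 2.18% and 3.4% of all tested genes had in the 3 comparisons. HF against NT and RT against NT share the NT libraries.

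**Figure D2:**
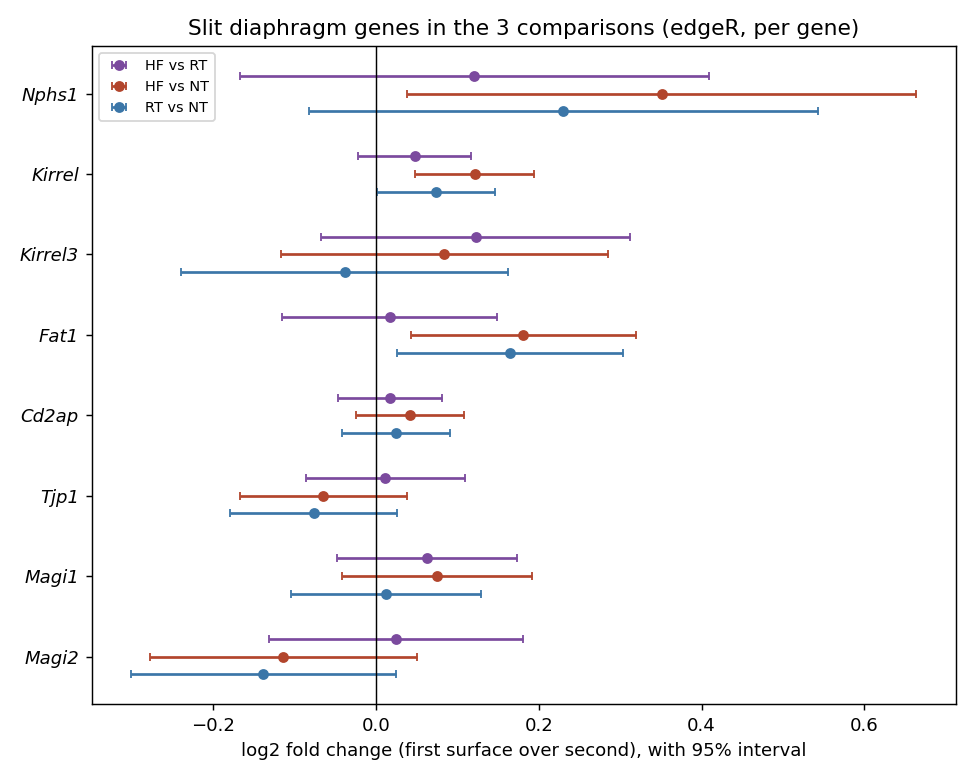
Log2 fold change with its 95% interval for the 8 tested slit diaphragm genes, with HF against RT, HF against NT and RT against NT from top to bottom within each gene. Kirrel, Fat1 and Nphs1 have intervals above 0 for HF against NT, Kirrel and Fat1 also for RT against NT, and all 8 intervals of HF against RT include 0.

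Nphs1 encodes nephrin, the protein that gives the slit its zipper-like structure and whose phosphorylated tail recruits actin regulators. It had between 53 and 114 counts per library. In HF the lowest, median and highest libraries held 3.91, 4.90 and 6.42 CPM, and in RT 3.45, 4.91 and 5.55 CPM. The NT libraries 1 to 5 held 4.76, 4.74, 3.92, 3.29 and 3.07 CPM. The groups overlapped, although 4 of 6 HF libraries and 4 of 6 RT libraries lay above the highest NT library. Nphs1 averaged 5.03 ± 0.891 CPM in HF, 4.66 ± 0.834 CPM in RT (SD, n = 6 each) and 3.96 ± 0.788 CPM in NT (SD, n = 5). The log2 fold change was 0.35 ± 0.15 for HF against NT (SE, edgeR adjusted p = 0.270), with a 95% interval from 0.04 to 0.66 before adjustment. It was 0.12 ± 0.14 for HF against RT (SE, edgeR adjusted p = 0.911) and 0.23 ± 0.15 for RT against NT (SE, edgeR adjusted p = 0.491). Its spread was the widest of the tested slit diaphragm genes, with a coefficient of variation of 19.8% over the 17 libraries, so that the interval for HF against NT reached from a 1.03-fold to a 1.58-fold level.

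Nphs1 was also the member with the most annotated overlap. Of its exonic bases 11.8% are shared with other genes, the antisense RNA Nphs1os and Rps12-ps4, a ribosomal protein pseudogene on the opposite strand. Nphs1os had between 0 and 1 counts per library and Rps12-ps4 between 25 and 59. The libraries were non-directional, so reads in shared stretches cannot be given to a strand. Slc31a1 and Bcl2l13 were among the 3 genes nearest to Nphs1 in pattern over the 17 libraries. Their standardised levels differed from that of Nphs1 by a root mean square of 0.699 and 0.702 SD, where the median over 12309 genes was 1.37 SD. These were picked for likeness, and no test applies.

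Kirrel2 encodes Neph3, also called filtrin, and lies beside Nphs1 on chromosome 7 with its transcript pointing away. It had 4 counts in all, 1 in HF 3, 2 in RT 2 and 1 in RT 5, and 0 counts in the other 14 libraries, all 5 NT libraries included. A count of 0 in NT allows a level of up to 0.161 to 0.203 CPM (3 counts per library, counting error only). No fold change is given for it. Trpc6, a calcium channel of the slit that is not among the 9 genes, was also too low to test, with 0 to 4 counts per library (14 in all).

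The sequences before the annotated starts of Kirrel, Kirrel2 and Nphs1 are shown because these genes of related proteins stood at the top and at the bottom of the order of levels. Each is the stretch of 250 bases before a RefSeq transcript start on GRCm38.p6, 5′ to 3′ on the gene's strand, in lower case with each CG dinucleotide in capitals. The window of Kirrel is chr3:87174538-87174787 (minus strand), that of Kirrel2 is chr7:30457516-30457765 (minus strand) and that of Nphs1 is chr7:30459808-30460057 (plus strand). The deposited counts were made on the later build GRCm39, per the submitters' processing notes, and give no positions.
Kirrel: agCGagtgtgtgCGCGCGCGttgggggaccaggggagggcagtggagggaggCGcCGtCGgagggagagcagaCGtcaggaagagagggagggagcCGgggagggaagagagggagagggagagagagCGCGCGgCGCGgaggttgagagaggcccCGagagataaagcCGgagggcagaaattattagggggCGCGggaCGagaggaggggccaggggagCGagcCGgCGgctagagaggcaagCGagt
Kirrel2: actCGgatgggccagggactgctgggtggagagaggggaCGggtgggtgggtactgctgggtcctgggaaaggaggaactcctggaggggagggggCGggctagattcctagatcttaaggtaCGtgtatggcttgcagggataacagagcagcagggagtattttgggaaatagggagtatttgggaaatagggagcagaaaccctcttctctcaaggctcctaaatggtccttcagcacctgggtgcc
Nphs1: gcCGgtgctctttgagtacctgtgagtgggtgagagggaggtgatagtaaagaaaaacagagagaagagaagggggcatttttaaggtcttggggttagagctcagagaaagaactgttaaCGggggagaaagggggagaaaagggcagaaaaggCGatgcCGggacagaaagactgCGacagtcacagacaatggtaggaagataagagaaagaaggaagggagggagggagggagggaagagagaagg
The starts of Nphs1 and Kirrel2 in that table lie 2543 bases apart on opposite strands. The Kirrel window held 24 CG dinucleotides, more than 88.0% of 32851 RefSeq windows of the same length had, against 4 in the Kirrel2 window and 5 in the Nphs1 window, with a median of 6 over all windows. Its content of G and C was 68.8%, against 56.4% for Kirrel2 and 50.8% for Nphs1, with a median of 52.4% over all windows. The GC box GGGCGG, searched on both strands and itself holding a CG, occurred 1 time in the Kirrel2 window and 0 times in the windows of Kirrel and Nphs1, and 32.7% of all windows hold it. The TATA box TATAAA (in 12.4% of all windows), the TEAD motif GGAATG (12.6%) and GCGTGGG, a core shared by WT1 and EGR motifs (4.30%), were in none of the 3 windows. The GENCODE model of Nphs1 begins upstream of the RefSeq start, so that its window lies inside that model. A match or its absence describes these letters only. The windows of the other members, from the highest level to the lowest, held 2 (Fat1), 22 (Tjp1), 31 (Cd2ap), 5 and 5 (Magi1) and 29 and 3 (Magi2) CG dinucleotides. The count of CG in these windows thus did not follow the order of levels. Whether the windows of the other members lie inside longer gene models, or at starts used in these cells, was not tested.

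Kirrel encodes Neph1, the partner of nephrin in the slit and a ligand of the scaffold ZO1. In HF the lowest, median and highest libraries held 620, 641 and 654 CPM, and in RT 604, 618 and 645 CPM. The NT libraries 1 to 5 held 602, 626, 595, 599 and 524 CPM. Of the HF libraries 5 of 6 lay above the highest NT library, and NT 5 stood below all others. The means were 641 ± 12.6 CPM in HF, 620 ± 15.6 CPM in RT (SD, n = 6 each) and 589 ± 38.2 CPM in NT (SD, n = 5). The log2 fold change was 0.12 ± 0.04 for HF against NT (SE, edgeR adjusted p = 0.0640), just outside the threshold, 0.07 ± 0.04 for RT against NT (SE, edgeR adjusted p = 0.285) and 0.05 ± 0.03 for HF against RT (SE, edgeR adjusted p = 0.796). For HF against NT it passed with DESeq2 (adjusted p = 0.0212) and, by edgeR, with no filter beyond 1 count (0.0190) and with replicate number as a block (0.0248). It also passed by edgeR without NT 1 (adjusted p = 0.0467) or NT 2 (0.0356). Without NT 5 it stood at 0.08 (edgeR adjusted p = 0.115), and over all cases of 1 library left out the adjusted p ran from 0.0356 to 0.144. Its 95% interval for HF against NT reached from a 1.03-fold to a 1.14-fold level.

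Kirrel3 encodes Neph2, which in mouse is best known from neurons. It averaged 14.2 ± 2.29 CPM in HF, 13.0 ± 1.34 CPM in RT (SD, n = 6 each) and 13.4 ± 1.69 CPM in NT (SD, n = 5). All groups overlapped, and HF 3 held the highest level of all (18.4 CPM). The log2 fold change was 0.12 ± 0.09 for HF against RT (SE, edgeR adjusted p = 0.812), 0.08 ± 0.10 for HF against NT (SE, edgeR adjusted p = 0.773) and -0.04 ± 0.10 for RT against NT (SE, edgeR adjusted p = 0.900). Without HF 3 it was -0.0035 for HF against NT, at the other side of 0. Per kilobase, Kirrel stood 39.7 ± 5.33 times as high as Kirrel3 in HF, 41.5 ± 4.49 times in RT (SD, n = 6 each) and 38.5 ± 6.03 times in NT (SD, n = 5). It stood 116 ± 21.0 times as high as Nphs1 in HF, 122 ± 23.5 times in RT (SD, n = 6 each) and 135 ± 21.2 times in NT (SD, n = 5). These proportions overlapped between all surfaces.

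Fat1, a giant cadherin of the slit that links to actin through Ena and VASP proteins, was the most abundant of the 9 genes by CPM. In HF the lowest, median and highest libraries held 1315, 1406 and 1496 CPM, and in RT 1231, 1413 and 1467 CPM. The NT libraries 1 to 5 held 1340, 1342, 1256, 1288 and 987 CPM. Of the HF libraries 5 of 6, and of the RT libraries also 5 of 6, lay above the highest NT library. Fat1 averaged 1409 ± 66.0 CPM in HF, 1393 ± 86.4 CPM in RT (SD, n = 6 each) and 1243 ± 148 CPM in NT (SD, n = 5). Its log2 fold change was 0.18 ± 0.07 for HF against NT (SE, edgeR adjusted p = 0.187), 0.16 ± 0.07 for RT against NT (SE, edgeR adjusted p = 0.199) and 0.02 ± 0.06 for HF against RT (SE, edgeR adjusted p = 0.981). Without NT 5 the values against NT were 0.11 for HF (edgeR adjusted p = 0.139) and 0.09 for RT (0.205), and over all cases of 1 library left out the adjusted p ran from 0.139 to 0.321 and from 0.0814 to 0.316. With replicate number as a block and all libraries kept, they were 0.19 (edgeR adjusted p = 0.00212) and 0.17 (0.00410), both past the threshold. Without all 3 libraries numbered 5 they were 0.13 (edgeR adjusted p = 0.0192) and 0.13 (0.0186), both past the threshold with smaller fold changes. Leaving these libraries out was a setting chosen after seeing the data. Of its exonic bases 3.11% are shared with Gm2366, which had between 4 and 29 counts per library.

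Cd2ap, the adaptor that binds the nephrin tail and actin regulators, varied least, with a coefficient of variation of 3.12% over the 17 libraries. It averaged 191 ± 4.80 CPM in HF, 189 ± 5.48 CPM in RT (SD, n = 6 each) and 186 ± 7.21 CPM in NT (SD, n = 5). Its log2 fold changes were 0.02 ± 0.03 for HF against RT, 0.04 ± 0.03 for HF against NT and 0.02 ± 0.03 for RT against NT (SE, edgeR adjusted p = 0.960, 0.622 and 0.781). The 95% intervals of the level reached from 0.968-fold to 1.06-fold for HF against RT, from 0.983-fold to 1.08-fold for HF against NT and from 0.971-fold to 1.07-fold for RT against NT. These intervals are before adjustment and cover only how far these libraries vary, so they set no firm limit on a difference of Cd2ap between surfaces.

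Tjp1 encodes ZO1, the tight junction scaffold that binds the tails of the Neph proteins. In HF the lowest, median and highest libraries held 338, 352 and 369 CPM, and in RT 327, 351 and 361 CPM. The NT libraries 1 to 5 held 385, 396, 385, 375 and 299 CPM. NT libraries 1 to 4 thus lay above every HF and RT library, and NT 5 lay below every one. Tjp1 averaged 352 ± 11.6 CPM in HF, 349 ± 11.4 CPM in RT (SD, n = 6 each) and 368 ± 39.3 CPM in NT (SD, n = 5). Its log2 fold change was -0.06 ± 0.05 for HF against NT (SE, edgeR adjusted p = 0.618), -0.08 ± 0.05 for RT against NT (SE, edgeR adjusted p = 0.481) and 0.01 ± 0.05 for HF against RT (SE, edgeR adjusted p = 0.981). With NT 5 left out it was -0.13 ± 0.03 for HF against NT (SE, edgeR adjusted p = 0.00938) and -0.14 ± 0.03 for RT against NT (SE, edgeR adjusted p = 0.00326), both past the threshold. So a single library decided whether Tjp1 was called lower on both topographies than on the flat surface.

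**Figure D3:**
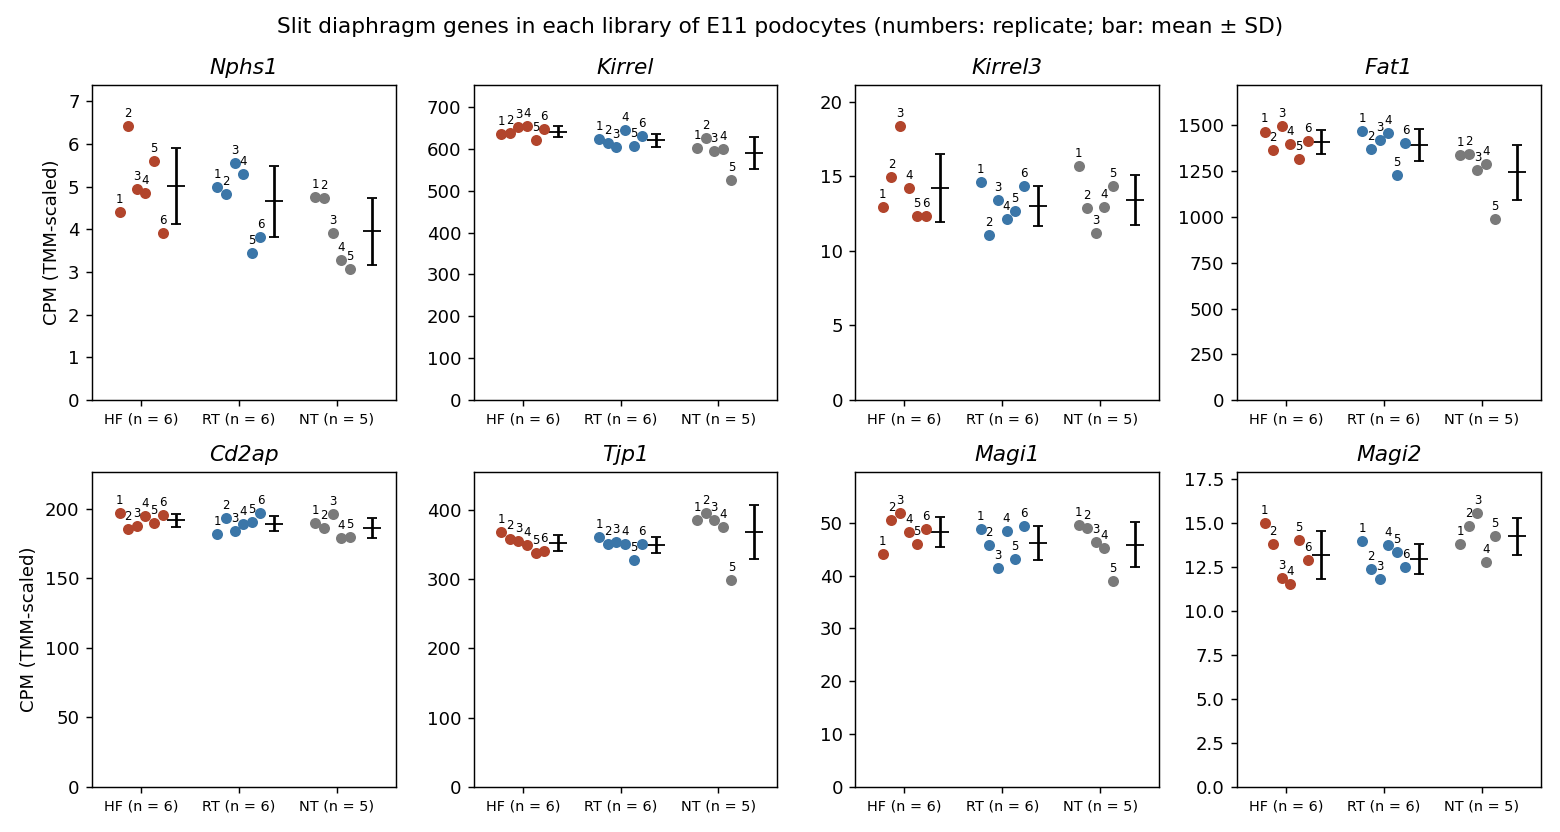
CPM (TMM-scaled, linear axis from 0) of the 8 tested slit diaphragm genes in each library, by surface (HF, RT, NT), with replicate numbers beside the points and the mean ± SD at the right of each group. NT 5 lies below the other NT libraries for Nphs1, Kirrel, Fat1, Tjp1 and Magi1, and for Tjp1 the other 4 NT libraries lie above every HF and RT library.

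Magi1 and Magi2 are membrane-associated guanylate kinases with inverted domain order that bind the nephrin tail and scaffold the slit. Magi1 averaged 48.2 ± 2.88 CPM in HF, 46.2 ± 3.27 CPM in RT (SD, n = 6 each) and 45.8 ± 4.21 CPM in NT (SD, n = 5). Magi2, which in mouse is required for the slit diaphragm, averaged 13.2 ± 1.34 CPM in HF, 12.9 ± 0.859 CPM in RT (SD, n = 6 each) and 14.2 ± 1.06 CPM in NT (SD, n = 5). The 2 scaffolds thus had their lowest and highest means on different surfaces, and the groups of both overlapped. For Magi1 the log2 fold changes were 0.06 ± 0.05 for HF against RT, 0.08 ± 0.06 for HF against NT and 0.01 ± 0.06 for RT against NT (SE, edgeR adjusted p = 0.850, 0.612 and 0.948). For Magi2 they were 0.02 ± 0.08, -0.11 ± 0.08 and -0.14 ± 0.08 in the same comparisons (SE, edgeR adjusted p = 0.978, 0.577 and 0.399). Per kilobase Magi1 stood 3.98 ± 0.582 times as high as Magi2 in HF, 3.83 ± 0.262 times in RT (SD, n = 6 each) and 3.47 ± 0.397 times in NT (SD, n = 5), with overlapping ranges.

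NT 5 held the lowest NT level of 5 of the 8 tested genes (Nphs1, Kirrel, Fat1, Tjp1 and Magi1), while it was the lowest NT library for 26.9% of all tested genes. It was also the highest NT library for 26.5% of all tested genes and for 0 of the 8, so over all genes it stood apart in both directions. HF 5 was the lowest HF library for 4 of 8 (Kirrel, Kirrel3, Fat1 and Tjp1), against 15.3% of all tested genes, and RT 5 the lowest RT library for 3 of 8 (Nphs1, Fat1 and Tjp1), against 18.1%. What a replicate number marks is not given in the sources used here, and these libraries were noticed by their values. When single libraries were left out, the 8 genes gave 0 calls for HF against RT in each of 12 cases. For HF against NT, 1 gene was called without NT 1 or NT 2 (Kirrel, higher) and 1 without NT 5 (Tjp1, lower), and for RT against NT 1 without NT 5 (Tjp1, lower).

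**Figure D4:**
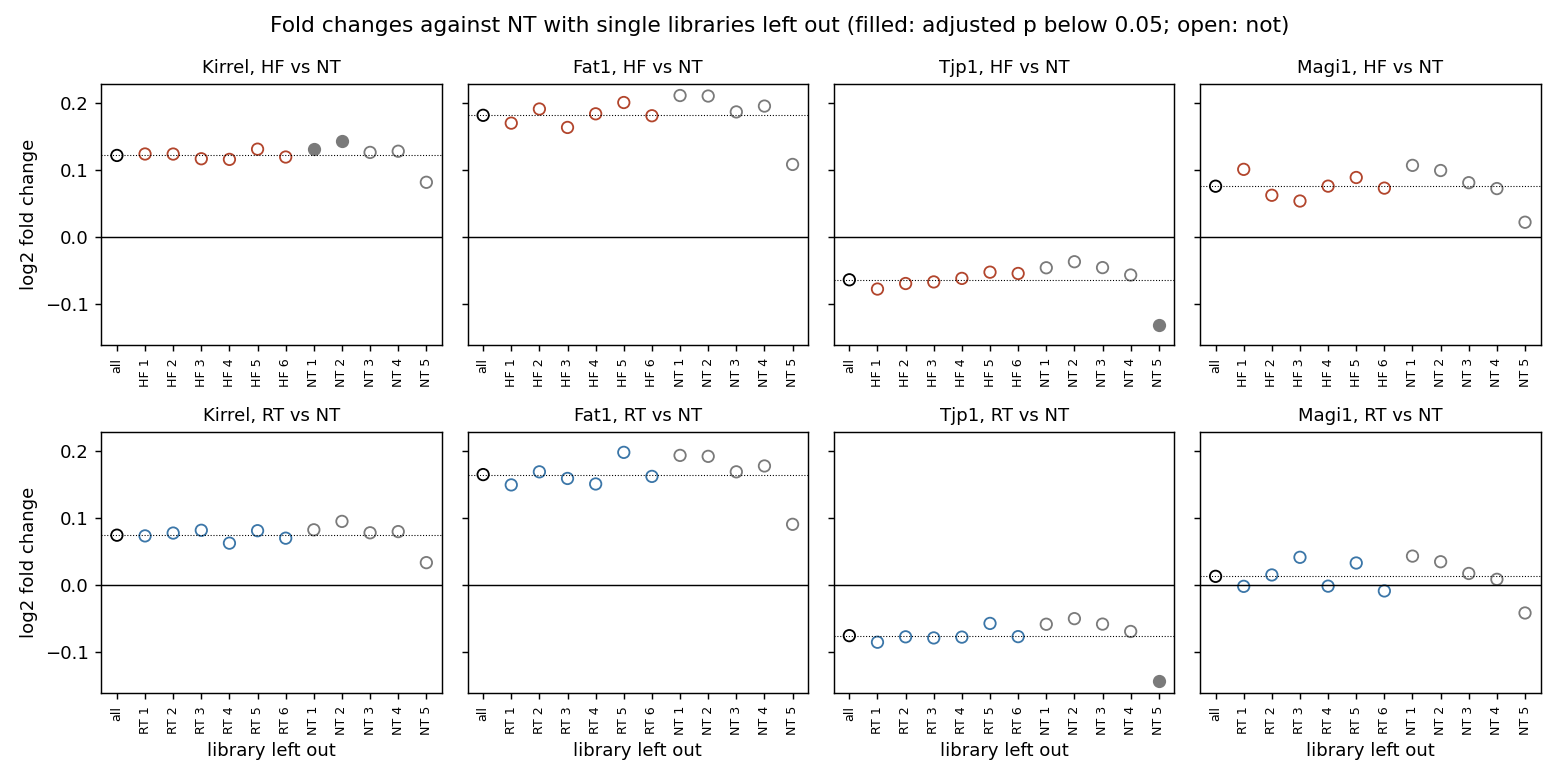
Log2 fold change of Kirrel, Fat1, Tjp1 and Magi1 for HF against NT (upper row) and RT against NT (lower row) with all libraries (black) and with each library left out in turn, coloured by its surface. Filled points passed an adjusted p of 0.05. NT 5 holds the lowest NT level of all 4 genes drawn, so leaving it out had to move them downwards, Tjp1 to -0.13 and -0.14.

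The other genes of the slit diaphragm and its junctions were read from a list of 56 partners, of which 55 were found as a single identifier and 45 tested. For HF against RT 0 of 45 were called (0.211% of all genes were), with 2 of 45 at an unadjusted p under 0.05 (8% of all genes). For HF against NT 0 of 45 were called (2.33% of all genes were), with 9 of 45 at an unadjusted p under 0.05 (14.2% of all genes). DESeq2 called 0 and 3 and limma voom 0 and 0 in these comparisons. For RT against NT 2 of 45 rose and 0 fell, a share near the 3.97% called among all genes, and 13 of 45 had an unadjusted p under 0.05 (17.1% of all genes). For 4 of the 45, Cgn and Patj among them, the RT and NT groups did not overlap, as was so for 3.4% of all tested genes. The median log2 fold change of the 45 was -0.01 for HF against RT, -0.0031 for HF against NT and 0.00089 for RT against NT, close to that of all genes.

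The partners that rose on RT were Cgn and Patj. Cgn encodes cingulin, a tight junction protein that binds ZO1. Its RT libraries held 7.12, 8.83 and 10.6 CPM (lowest, median and highest), and the NT libraries 1 to 5 held 4.39, 6.70, 6.98, 4.47 and 4.69 CPM, so that every RT library lay above every NT library. Cgn averaged 8.79 ± 1.31 CPM in RT (SD, n = 6) and 5.45 ± 1.28 CPM in NT (SD, n = 5). Its log2 fold change was 0.69 ± 0.15 (SE, edgeR adjusted p = 0.00604), and with any 1 library left out the adjusted p lay between 0.00269 and 0.0248. Without the 3 libraries numbered 5 its adjusted p was 0.0518. On HF it averaged 7.62 ± 1.65 CPM (SD, n = 6), with a log2 fold change against NT of 0.48 ± 0.15 (SE, edgeR adjusted p = 0.0923) and against RT of -0.20 (edgeR adjusted p = 0.772). Against NT it passed on HF with DESeq2 (adjusted p = 0.0473) and, by edgeR, with no filter beyond 1 count (0.00493) and with replicate number as a block (0.00941). It also passed there by edgeR with libraries numbered 1 to 5 (adjusted p = 0.0371) and without HF 6 (0.0310) or NT 3 (0.0490). The other cases of 1 library left out gave 0.0703 to 0.220.

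Patj encodes a scaffold of the Crumbs polarity complex. Its RT libraries held 3.96, 4.43 and 6.27 CPM (lowest, median and highest), and the NT libraries 1 to 5 held 3.27, 3.79, 3.27, 2.65 and 2.78 CPM. Every RT library lay above every NT library. The log2 fold change was 0.55 ± 0.15 (SE, edgeR adjusted p = 0.0321), which no longer passed without RT 1, RT 3, RT 4, NT 3, NT 4 or NT 5, each left out alone (adjusted p = 0.102, 0.0586, 0.0589, 0.0602, 0.0937 and 0.0588). In all 11 cases of 1 library left out its log2 fold change stayed between 0.45 and 0.62. Without the 3 libraries numbered 5 its edgeR adjusted p was 0.0571, as Cgn also missed the threshold there. Over the 8 alternatives other than leaving out 1 library, the log2 fold change of Patj lay between 0.53 and 0.61. On HF Patj averaged 3.92 ± 0.668 CPM (SD, n = 6), with a log2 fold change against NT of 0.32 (edgeR adjusted p = 0.350) and against RT of -0.23 (edgeR adjusted p = 0.733).

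By role, 12 of 13 genes of nephrin signalling were tested, among them Fyn, the kinase that phosphorylates nephrin, and the Nck adaptors that bind it. None was called by edgeR (1, 2 and 1 of the 12 had an unadjusted p under 0.05 in HF against RT, HF against NT and RT against NT, where 8%, 14.2% and 17.1% of all genes did), and their fold changes against NT lay between -0.09 and 0.14 on the log2 scale for HF and between -0.10 and 0.11 for RT. Of 6 actin and trafficking genes, 11 polarity genes, 6 junction scaffolds, 9 adhesion genes and 5 cadherins of the FAT and Dachsous families, 6, 10, 6, 6 and 3 were tested, with Patj and Cgn as the only calls by edgeR in the 3 comparisons. In the same order of comparisons, 0, 3 and 5 of the 6 junction scaffolds had an unadjusted p under 0.05. For polarity genes it was 1, 3 and 3 of 10, and for actin and trafficking genes 0, 0 and 1 of 6. Adhesion genes had 0, 0 and 2 of 6, and the cadherins 0, 1 and 1 of 3. Roles were assigned after the values were seen, and no role was tested as a set. Of the 6 other membrane proteins of the slit, 2 were tested (Efnb1 and Sirpa).

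Magi3, a paralog of Magi1 and Magi2, was the most abundant of the Magi genes per kilobase, 11.1 ± 0.968 times as high as Magi1 in HF, 12.5 ± 1.10 times in RT (SD, n = 6 each) and 12.6 ± 0.307 times in NT (SD, n = 5). It averaged 431 ± 24.4 CPM in HF, 463 ± 28.8 CPM in RT (SD, n = 6 each) and 465 ± 42.7 CPM in NT (SD, n = 5). For HF against NT its log2 fold change was -0.11 ± 0.05 (SE, edgeR adjusted p = 0.377), and without NT 5 it was -0.17 and passed (edgeR adjusted p = 0.0273). Sh3kbp1, which encodes CIN85, the paralog of Cd2ap, averaged 30.3 ± 4.36 CPM in HF, 29.2 ± 1.94 CPM in RT (SD, n = 6 each) and 32.3 ± 4.25 CPM in NT (SD, n = 5). None of its comparisons passed (lowest edgeR adjusted p = 0.474).

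**Figure D5:**
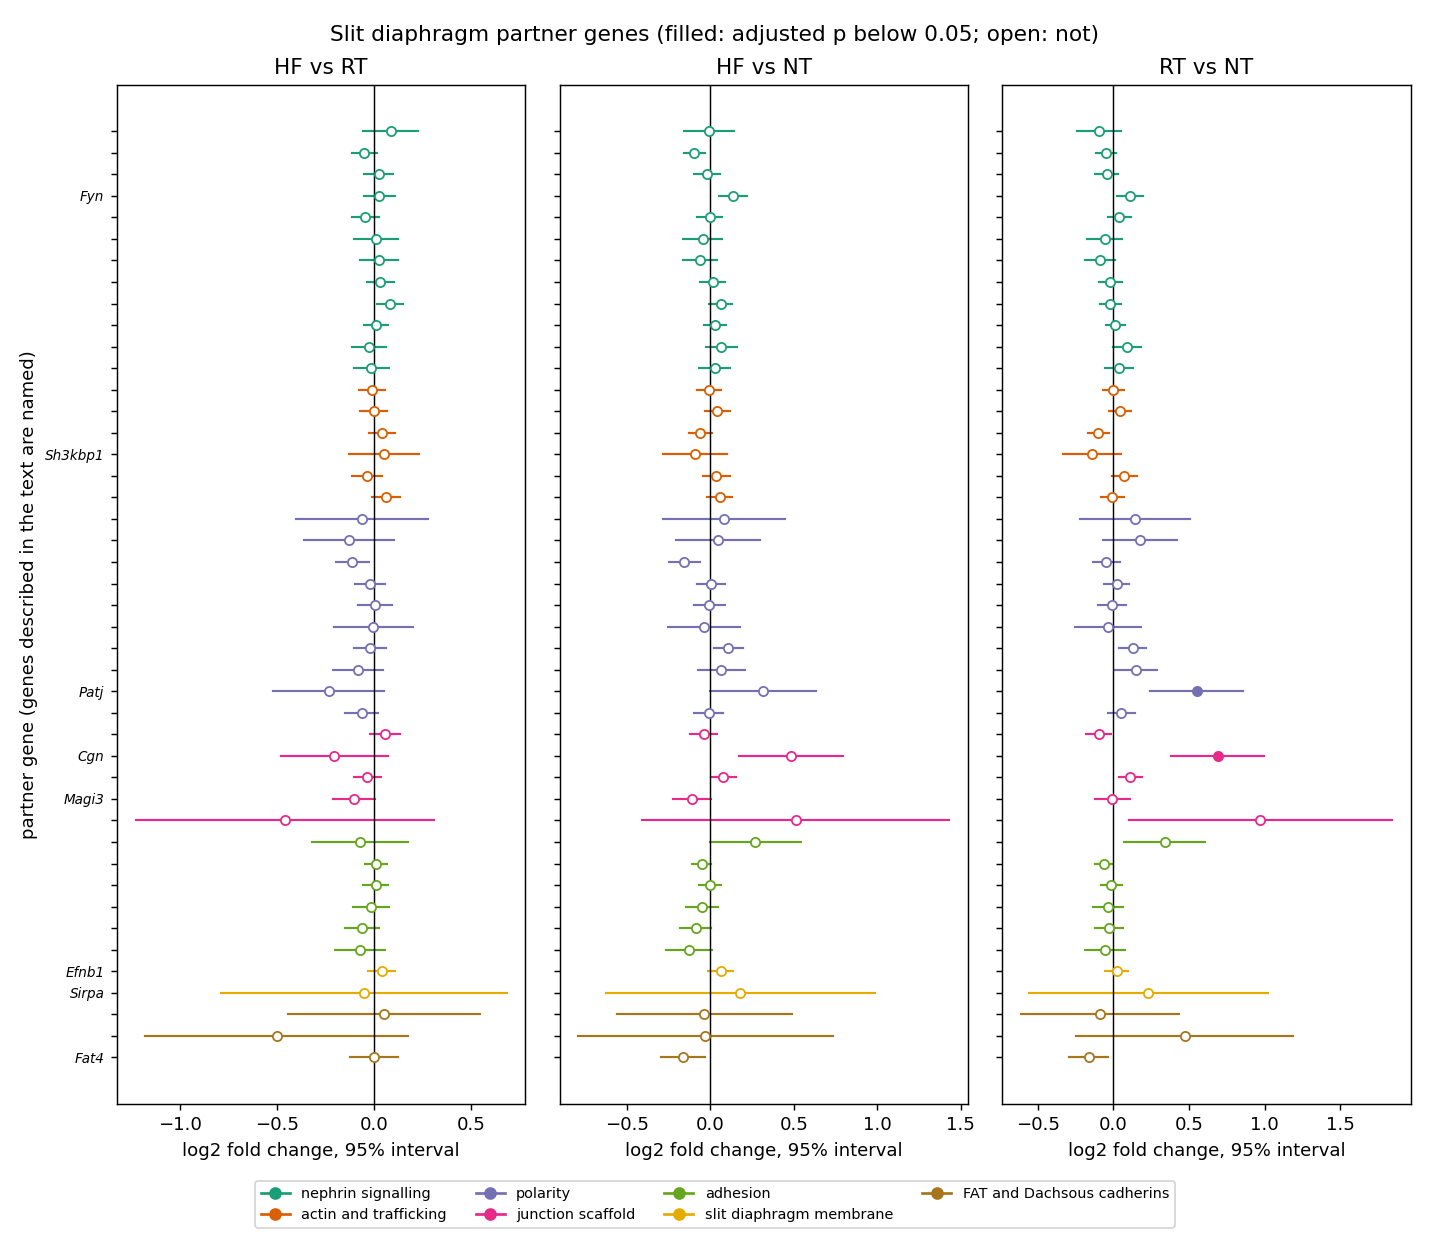
Log2 fold change with its 95% interval for 44 of the 45 tested partner genes in the 3 comparisons, a row for each gene, coloured by role, with filled points for an adjusted p under 0.05. Cgn and Patj are the only filled points, both for RT against NT.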

How the data were processed

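RNA of 17 libraries of E11 podocytes was sequenced as poly-A selected, non-directional libraries with paired reads, per the labels' protocols. The deposited table gives unnormalized read counts for each gene, without pooling of libraries. The submitters' processing notes name CASAVA, HISAT2 2.0.5, featureCounts 1.5.0-p3 and GRCm39. The annotation release and the strand setting are not given in the sources used here.

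Symbols, exon lengths and overlaps came from GENCODE M21 (on GRCm38), which named 52073 of 56748 identifiers, and promoter windows from RefSeq (GRCm38.p6, 8 of 9 members). Genes were kept by filterByExpr, scaled by TMM and modelled in edgeR 4.0.16 (glmQLFit, robust, 3 groups in 1 fit, no covariate). The tests were two-sided, with Benjamini-Hochberg adjustment over 15196 genes and a threshold of 0.05. SE are the fold change over the square root of F, and 95% intervals use the moderated degrees of freedom. Alternatives were DESeq2 1.42.0, limma voom 3.58.1, RLE size factors, no filter beyond 1 count, only the 2 groups compared, a replicate block, libraries numbered 1 to 5 and leaving out single libraries. The code was tested on simulated data.

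Members, lists and tests were chosen with earlier results of these data known. Named were all members, the partners past the threshold (at most 8), Trpc6, Sh3kbp1 and Magi3, and the 3 genes nearest to Nphs1 in pattern among those averaging at least 1 log2 CPM (log2 CPM with a prior count of 2). Partner roles were assigned after the partners' values were seen. No pair of libraries of a group agreed within sampling noise (chi-square per gene of at least 2.59 over 40 pairs). Some genes that this rule names are not reported here.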

Additional observations from a re-analysis of the deposited data

Results flagged for a closer look

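In 36 groups of libraries (12 named genes on 3 surfaces), 4 held a library whose gap to the nearest of its group was large against the range of the group by Dixon's 95% criterion, and chance gives about 1 in 20. Fat1 was lowest in NT 5, at 987 CPM with the next NT library at 1256 CPM. Tjp1 was lowest in NT 5, at 299 CPM with the next at 375 CPM, and lowest in RT 5, at 327 CPM with the next RT library at 351 CPM. Patj was highest in RT 1, at 6.27 CPM with the next RT library at 4.71 CPM. The causes were not tested.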

How the results depend on the processing

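The 8 tested members gave 0 calls for HF against RT under every alternative run. For HF against NT, where the main count was 0, it was 1 with DESeq2, 1 with no filter beyond 1 count (both Kirrel), 2 with the replicate block (Kirrel, and Fat1 at 0.19, adjusted p = 0.00212, both higher), 2 without the 3 libraries numbered 5 (Fat1 higher, Tjp1 lower) and 0 to 1 when single libraries were left out. For RT against NT it was 1 with the replicate block (Fat1, higher at 0.17, adjusted p = 0.00410), 2 without the libraries numbered 5 (Fat1 higher, Tjp1 lower) and 0 to 1 with single libraries left out. Leaving out the libraries numbered 5 was chosen after seeing the data. Of the partners, for HF against NT, 3 passed with DESeq2, 4 with no filter, 3 with the replicate block (Cgn among them, adjusted p = 0.00941), 2 with libraries numbered 1 to 5, 3 without the libraries numbered 5 and 0 to 5 with single libraries left out. For RT against NT the count of 2 partners became 4 with the replicate block and 1 to 3 with single libraries left out.

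Over all genes, 354 calls for HF against NT became 538 with DESeq2, 597 with no filter, 200 with only the 2 groups, 637 with the replicate block and 202 to 604 with single libraries left out. The 32 for HF against RT became 84, 148, 113 and 125 in the same settings, 15 with libraries numbered 1 to 5 and 14 to 89 with single libraries left out. The 603 for RT against NT became 995 with the replicate block and 365 to 806 with single libraries left out. Same-numbered libraries deviated together weakly at most: the correlation of their deviations ranged from -0.0111 to 0.193, with 15 of 16 pairs above 0 and 2 over 0.1. Of the 17 libraries 8 correlated best with a library of their own number, a hint from the data and not from the design. How many would do so by chance was not counted. Since not every pair was over 0.1, the numbers were not taken as pairs in the main fit. That rule cannot show that the libraries are unpaired. With and without the block, the calls differed for Kirrel (HF against NT) and for Fat1 (HF and RT against NT).

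Some uncalled values near 0 changed sign. Magi1 for RT against NT was -0.0116 with libraries numbered 1 to 5 and -0.0204 without those numbered 5, and Magi3 for RT against NT was 0.0129 with the replicate block and 0.0136 with libraries numbered 1 to 5. With single libraries left out, log2 fold changes for HF against RT ranged from -0.0163 to 0.0359 for Fat1, from -0.0151 to 0.0607 for Magi2, from -0.00645 to 0.0231 for Tjp1 and from -0.00276 to 0.119 for Sh3kbp1. Kirrel3 ranged from -0.00351 to 0.147 for HF against NT and from -0.0989 to 0.0240 for RT against NT, Magi1 from -0.0424 to 0.0426 and Magi3 from -0.0635 to 0.0227 for RT against NT. The causes were not tested. Nphs1 had few counts (53 to 114 per library) and a wide spread, and Kirrel2 had 4 counts in all.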

Other observations

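Fat4, a relative of Fat1 on the partner list and a cadherin of planar cell polarity, averaged 52.8 ± 4.05 CPM in HF, 52.7 ± 3.93 CPM in RT (SD, n = 6 each) and 59.2 ± 5.97 CPM in NT (SD, n = 5), and it was not called (edgeR adjusted p = 0.199 for HF against NT and 0.164 for RT against NT). Per kilobase, Fat1 stood 29.5 ± 3.07 times as high as Fat4 in HF, 29.1 ± 3.06 times in RT (SD, n = 6 each) and 23.0 ± 1.11 times in NT (SD, n = 5). The proportion ranged from 26.2 to 34.5 in HF, from 25.4 to 33.4 in RT and from 21.8 to 24.6 in NT, so that every HF and RT library lay above every NT library. By its own level neither gene kept the groups apart. How many other pairs of genes keep them apart as fully was not counted, so the separation cannot be weighed. The pair was chosen after its values were seen, and no test is given.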
